A study of Mus musculus with 8 samples.

Results

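The circadian clock genes Per1, Per2, Per3, Cry1, Cry2, Arntl, Clock, Nr1d1, Nr1d2 and Dbp were followed in cultured skin fibroblasts of Nd2-mutant and control mice. All probes of the expression array whose gene symbol was 1 of these 10 names were taken, which gave 16 probes of 25697, for 10 of 18138 gene symbols. The arrays, MouseRef-8 v2.0 from Illumina, carried the RNA of 1 mouse each and were 8 in all. The Nd2-mutant mice were of the strain C57BL/6J-mtALR/LtJ, with males 28 and 32 and females 34 and 35, and the control mice were of the strain C57BL/6J-mtAKR/J, with males 16 and 17 and females 15 and 37. Every mouse was 12 months old. Both strains are conplastic, that is, they carry the nuclear genome of C57BL/6J and differ in the mitochondrial genome, which in the mutant strain carries a mutation in Nd2, a subunit of complex I of the respiratory chain. The control is therefore another mitochondrial donor strain and not C57BL/6J itself. Cells were taken at passage 1, in medium with serum. For the 2 days before use the cultures were kept in medium without Mycokill, an additive of the isolation culture. The time of day of the harvest, any later change of medium and any synchronisation of the cultures are not given in the sources used here. Each culture was measured once, so that the values give relations between genes over cultures and not a course over time.

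The mammalian clock is a feedback loop of transcription. ARNTL (also called BMAL1) and CLOCK bind as a pair to E-boxes and drive Per, Cry, Nr1d1, Nr1d2 and Dbp, and the PER and CRY proteins then repress that pair. The nuclear receptors encoded by Nr1d1 and Nr1d2 (REV-ERB alpha and beta) repress Arntl through ROR elements, so that in a synchronised tissue Arntl peaks when the E-box genes are low, and DBP acts on D-boxes in other clock and output genes. Fibroblasts carry this loop in culture, and serum or glucocorticoids can induce Per1 and Per2 acutely.

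The deposited values are normalized intensities on a linear scale, each with a detection p-value, and a probe was called detected at a detection p-value under 0.01. Of the 16 clock probes, 10 probes of 8 genes were detected on all 8 arrays and were tested, among 10414 tested probes of 8003 genes. Between 10663 and 11350 probes were detected per array. Control mouse 15 gave the array least like the rest, with an r that averaged 0.934 against 0.963 to 0.974 for the other 7. The 8 fibroblast markers examined were detected on 8 of 8 arrays, with summed intensities from 29346 to 43372. Of 6 macrophage markers 2, Csf1r and Laptm5, were detected on all arrays. The sum over the 6 was 247 to 1476 in Nd2-mutant and 197 to 544 in control cultures, with the 1476 in mouse 35. There Laptm5 read 673, Lyz2 344 and C1qb 212, while Csf1r (ILMN_2710819) read 39.5 against 15.3 to 36.9 in the other cultures. In control mouse 15 Laptm5 read 443. The sums over the 3 adipocyte markers stayed at or below 11.7, and the 4 melanocyte markers at or below 26.5. Of 4 keratinocyte markers 2 were detected on all arrays, with sums of 191 to 1132 in Nd2-mutant and 307 to 906 in control cultures and Krt1 on no array. Of 4 endothelial markers 2 were, with sums of 77.4 to 166 in Nd2-mutant and 61.1 to 285 in control cultures and Kdr on no array. The 285 was in control mouse 15, where Pecam1 (ILMN_2700982) read 88.6 and Cdh5 61.5, while Tek was highest in mouse 35 at 91.2.

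In the positive arm of the loop, Arntl and Clock varied little between cultures. The intensity of Arntl, the partner of CLOCK, was 211, 176, 183 and 176 in Nd2-mutant mice 28, 32, 34 and 35, and 152, 172, 232 and 172 in control mice 15, 16, 17 and 37. In bulk cultures fewer cells of a type and less RNA per cell cannot be told apart, which holds for each value below. The highest and lowest values of Arntl were both in control cultures, and they differed 1.52-fold. The detected probe of Clock gave 458, 431, 453 and 311 in the same Nd2-mutant mice and 363, 401, 409.9 and 533 in the control mice, a range of 1.71-fold in which the strains overlapped.

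The Period genes, whose products repress the ARNTL and CLOCK pair, covered a wider range. For Per1, probe ILMN_2813484 read 493, 416, 151 and 122 in Nd2-mutant mice 28, 32, 34 and 35, and 769, 438, 341 and 274 in control mice 15, 16, 17 and 37. The 2 female Nd2-mutant cultures lay below every control culture, whereas the 2 male ones lay within the control range. The other probe of Per1, ILMN_2813487, gave 173, 119, 49.5 and 40.9 against 266, 137, 141 and 104, and its log2 values correlated with those of the first probe over the 8 cultures with r = 0.982. For Per2, probe ILMN_2987862 read 423, 299, 117 and 124 in the Nd2-mutant mice and 501, 236, 195 and 189 in the control mice. Probe ILMN_2987863 of Per2 gave 358, 251, 90.8 and 93.4 against 340.1, 223, 159 and 132, and the probes correlated with r = 0.980. On both Per2 probes the male Nd2-mutant cultures were above both male control cultures and the female ones below both female control cultures. Highest and lowest culture differed 6.30-fold and 6.50-fold for the Per1 probes and 4.27-fold and 3.95-fold for those of Per2.

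Cry2, the other repressor partner that could be measured, read 104, 86.0, 42.1 and 33.9 in Nd2-mutant mice 28, 32, 34 and 35 and 89.9, 99.2, 48.3 and 46.5 in control mice 15, 16, 17 and 37. Each strain held a pair of high and a pair of low cultures. Nr1d1, which encodes REV-ERB alpha, read 166, 89.7, 42.8 and 30.6 in the Nd2-mutant mice and 116, 144, 50.7 and 49.2 in the control mice. The same 4 cultures were high, and the range was 5.43-fold. Nr1d2 (REV-ERB beta) had the narrower range of 1.94-fold, with 138, 115, 71.3 and 91.1 against 129, 123, 90.2 and 104. Dbp, the PAR bZIP factor often used as a readout of E-box activity, gave 408, 288, 201 and 313 in the Nd2-mutant mice and 449, 265, 216 and 325 in the control mice, and here the culture of mouse 35 was not among the low ones.

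**Figure D1:**
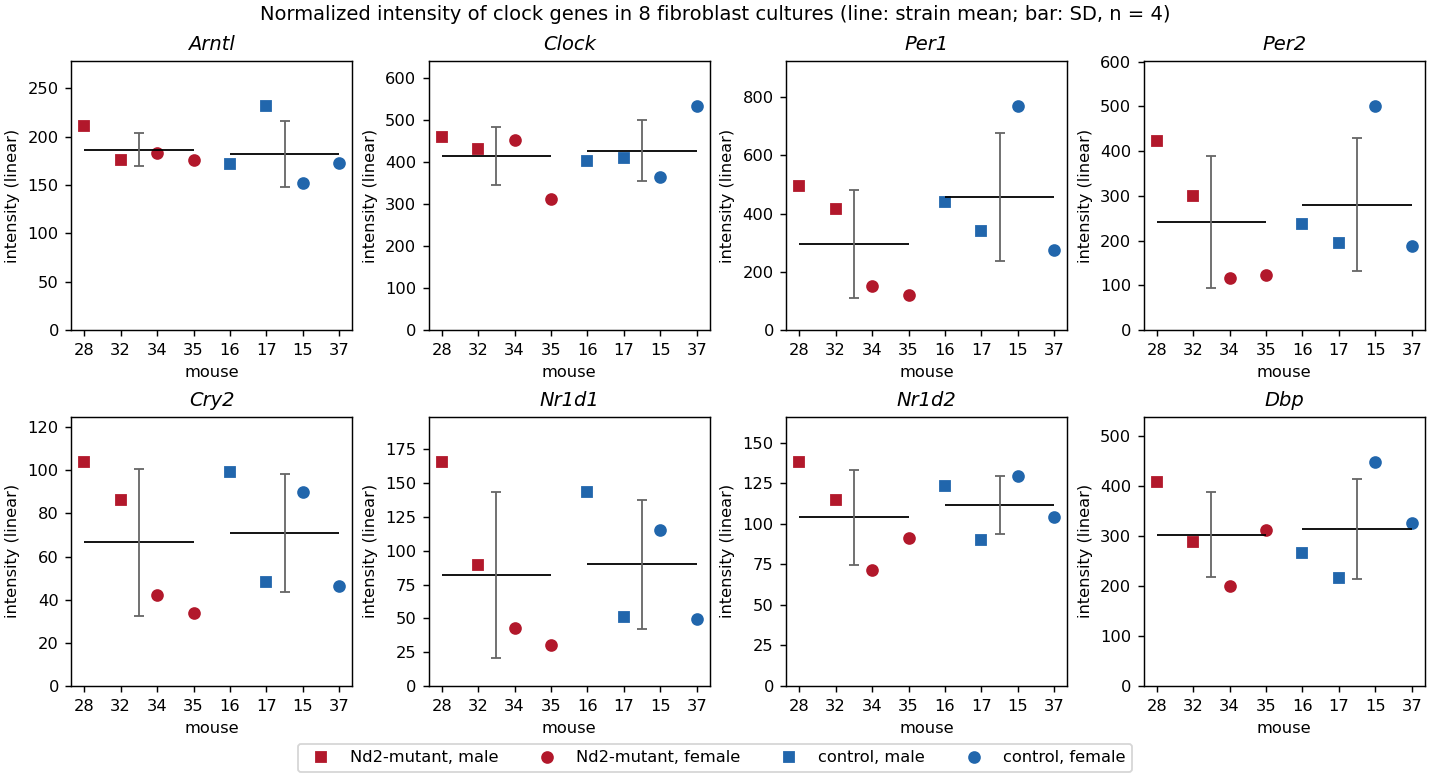
Normalized intensity (linear scale, y axis from 0) of the 8 tested clock genes in each of the 8 cultures (x axis, mouse number), with the probe of the highest mean shown for each gene. Red marks Nd2-mutant and blue control cultures, squares males and circles females, the line is the mean of a strain and the bar its SD (n = 4). In Per1, Per2, Cry2 and Nr1d1 both female Nd2-mutant cultures (mice 34 and 35) are the lowest of the 8.

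Per3 and Cry1 could not be compared. The only Per3 probe was detected on 1 of 8 arrays and reached an intensity of 17.9, and the only Cry1 probe was detected on 0 of 8 arrays with at most 3.35. A further probe of Per2, 1 of Nr1d2 and 2 of Clock were detected on at most 1 array each and did not pass the filter, with intensities of at most 15.1. These probes give no level for the genes concerned, and for Per2, Nr1d2 and Clock the detected probes are the ones described.

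Whether the mitochondrial genotype moved clock transcripts was tested by comparing 4 Nd2-mutant with 4 control cultures on log2(intensity + 16). None of the 8 clock genes had an adjusted p under 0.05 with limma, nor an unadjusted one. Over all tested probes 0% passed after adjustment and 7.63% before it. In 0 of the 8 genes were the strains without overlap, against 4.37% of all probes. In 7 genes the difference, Nd2-mutant minus control, was below 0 and in 1, Arntl, above it, with a median of -0.11 on the log2 scale (one probe per gene, that of the highest mean). Of all tested probes 49.8% were below 0, and their median was 0.00. The number of mice limits this comparison, and because only 1 sample per mouse was hybridised, variation between animals and between cultures of 1 animal cannot be told apart.

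Per1 had the widest difference between the strain means. On probe ILMN_2813484 the means were 295 ± 186 in Nd2-mutant and 455 ± 219 in control cultures (SD, n = 4 each), a log2 difference of -0.72 (SE 0.45, 95% interval -1.70 to 0.27, adjusted p = 0.666 with limma). An exact permutation test of the 4 against 4 values, 2-sided, gave p = 0.257, where the smallest p it can give is 0.0286. The other Per1 probe gave -0.78 (SE 0.39) with an adjusted p of 0.639 in limma and p = 0.229 in the exact permutation test. Both intervals contain 0. Without Nd2-mutant mouse 28 Per1 reached an unadjusted p of 0.0124 on probe ILMN_2813487 in limma (log2 difference -1.09, adjusted p = 0.881), and without control mouse 37 one of 0.0490 (-0.94, adjusted p = 0.457).

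For the other genes the strain difference was smaller than its standard error. Per2 differed by -0.28 (SE 0.42) and -0.23 (SE 0.42) on its 2 tested probes and Nr1d1 by -0.20 (SE 0.44). Cry2 differed by -0.12 (SE 0.31), with means of 66.5 ± 33.9 and 71.0 ± 27.5, and Nr1d2 by -0.11 (SE 0.19). Dbp was at 302 ± 85.2 in Nd2-mutant and 314 ± 101 in control cultures, a difference of -0.04 (SE 0.25). Arntl (0.04, SE 0.15) and Clock (-0.05, SE 0.17) had the narrowest 95% intervals of the 8 genes, from -0.30 to 0.38 and from -0.43 to 0.34. Adjusted p in limma lay between 0.639 and 0.966 for all 10 probes. The direction of these small differences rested on single cultures: without control mouse 15, the array that correlated least with the others, Per2 was at 0.03 and 0.01 and Dbp at 0.14.

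**Figure D2:**
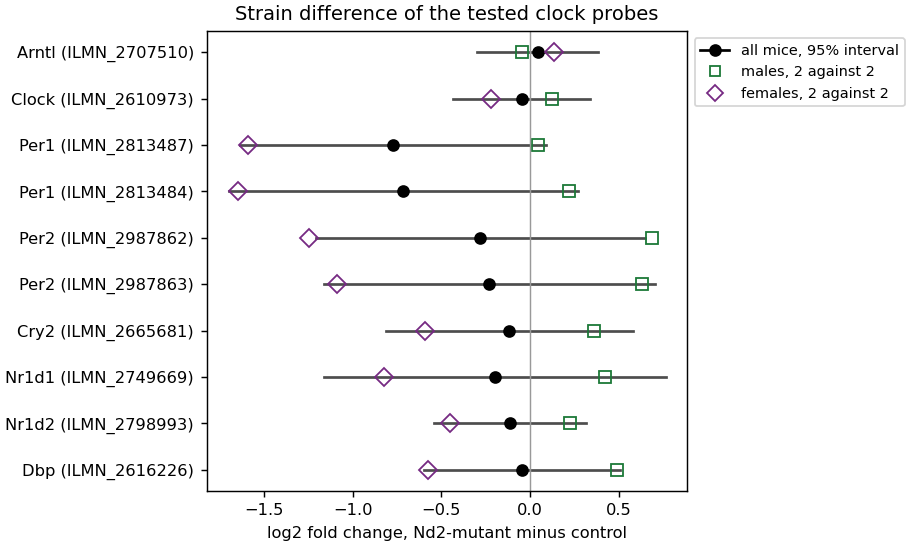
Log2 difference between the strains (x axis, Nd2-mutant minus control) for the 10 tested clock probes (y axis). Black points are the difference over all 8 mice with its 95% interval from limma, green squares the difference between males and violet diamonds that between females, 2 against 2 mice each. Every interval contains 0, and for Per1, Per2, Cry2, Nr1d1, Nr1d2, Dbp and Clock the males lie to the right of 0 and the females to the left.

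Between the sexes, with strain as a term, 0 of the 8 clock genes had an unadjusted p under 0.05 in limma, against 8.31% of all probes, and 0 an adjusted one, against 0.0192%. Cry2 (male minus female 0.56, SE 0.27) and Nr1d1 (0.78, SE 0.38) had the smallest unadjusted p, at 0.0691 and 0.0666, with adjusted p of 0.645 and 0.642. This comparison depended on single arrays. Without control mouse 15, 4 genes (Per1, Per2, Cry2 and Nr1d1) passed an unadjusted 0.05 with male values higher by 0.81 to 1.16 on the log2 scale, although 0 passed after adjustment (smallest adjusted p = 0.177 in limma). Without control mouse 17, 3 genes (Per2 on 1 of its probes, Cry2 and Nr1d1) passed an unadjusted 0.05, with 0.82 to 1.16 and a smallest adjusted p of 0.402. Over all genes, leaving out single mice gave 468 to 1589 with an unadjusted p under 0.05 in limma. After adjustment it gave 0 to 10, with the 10 without control mouse 15. With array weights, which give arrays of larger residual spread less weight in limma, Per1, Per2 and Cry2 passed after adjustment, with differences of 0.77 to 1.21 and adjusted p between 0.0212 and 0.0444. Of all 8003 tested genes 367 then passed after adjustment and 1927 before it, against 2 and 787 without weights.

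For Per2 and Dbp the strain difference ran in opposite directions in males and females, with no overlap of the strains within either sex. In the other tested genes its sign differed between the sexes too, but the strains overlapped in males or in females. In males Per2 averaged 361 in Nd2-mutant and 216 in control cultures on probe ILMN_2987862, and in females 121 and 345, so that the log2 difference was 0.69 in males and -1.25 in females. For Dbp the means were 348 and 241 in males and 257 and 387 in females. Per1 averaged 454 and 389.6 in males and 137 and 521 in females. The interaction of strain and sex, the difference in males minus that in females, was 1.94 (SE 0.56) and 1.72 (SE 0.56) for the Per2 probes, 1.87 (SE 0.59) and 1.64 (SE 0.53) for the Per1 probes and 1.07 (SE 0.41) for Dbp.

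These 3 genes, with 5 of the 10 tested clock probes, had an unadjusted interaction p under 0.05 in limma (0.00806 to 0.0314), where 1.77% of all probes did and 0.951% did so with a positive coefficient. None passed after adjustment, as 0.0096% of all probes did, with an adjusted p of 0.9999 for each of the 10 probes. On the linear scale 0 clock genes had an unadjusted interaction p under 0.05, and Dbp had none with array weights or with no filter on detection. The coefficient was also above 0 for Nr1d1 (1.25, SE 0.68), Cry2 (0.96, SE 0.48), Nr1d2 (0.67, SE 0.33) and Clock (0.35, SE 0.37), and it was -0.18 (SE 0.31) for Arntl. Each combination of strain and sex held 2 mice. Without control mouse 15 the coefficients of Per1 were 1.15 and 1.02, those of Per2 1.27 and 1.09, and that of Dbp 0.84. Without control mouse 17 Nr1d1 was at 0.62 and Cry2 at 0.54, without control mouse 16 Nr1d1 was at 1.88, and Clock ran from 0.08 without control mouse 37 to 0.61 without control mouse 15.

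The same can be read from single cultures. The 2 female Nd2-mutant cultures were both below the other 6 on 6 of 10 tested clock probes, those of Per1, Per2, Cry2 and Nr1d1, against 4.93% of all tested probes. This pattern was chosen after the values had been seen. For Cry2 and Nr1d1 the gap to the next culture was small, 1.10-fold and 1.15-fold, and for Per1 it was 1.81-fold and 2.11-fold. Per2 on both probes and Dbp showed Nd2-mutant cultures above control cultures in males and below them in females without overlap, as 1.26% of all probes did. Of the genes outside the members, 2 of 6 tested immediate early genes (Fosb and Atf3) and 3 of 6 glucocorticoid-responsive genes (Dusp1, Klf9 and Sgk1) were also below the other cultures in both, while the other 4 immediate early genes, Fos (897 and 874 against 310 to 3896) among them, were not. Fosb, an immediate early gene, read 121 and 73.8 in mice 34 and 35 and between 827 and 1720.2 in the other 6, and Atf3, another bZIP factor, inducible by stress, 2.52 and 15.9 against 46.3 to 65.7. Id1, the only gene with an adjusted interaction p under 0.05 in limma (adjusted p = 0.0341), read 126 and 86.1 against 1097 to 1932. Krt14, a marker of basal keratinocytes, read 38.3 and 77.9 against 166 to 1007, but Krt10, the other keratinocyte marker detected on all arrays, 150 and 131 against 90.9 to 131. The sum over the keratinocyte markers was 191 and 209 against 301 to 1132, while the macrophage markers were high in mouse 35 and not in mouse 34 (sum 336). The part of these transcripts, or of the cells they mark, in the low Per1 and Per2 values was not tested.

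Over the 8 cultures the E-box genes varied together. All 15 pairs among Per1, Per2, Cry2, Nr1d1, Nr1d2 and Dbp had a positive Pearson correlation of their log2 values, from 0.50 to 0.98 with a median of 0.85. Exact permutation tests over all 40320 pairings of the cultures, 2-sided, were run for the 28 pairs of the 8 tested genes, with p-values adjusted over the 28 pairs by Benjamini-Hochberg. Of the 15 pairs, 12 had an unadjusted and 10 an adjusted exact p under 0.05, and with Spearman's rho 11 and 10. The 10 pairs were all those among Per1, Per2, Cry2, Nr1d1 and Nr1d2. Dbp was the member that stood furthest from the rest of this set, at 0.79 with Nr1d2 and 0.75 with Per2 (adjusted exact permutation p = 0.0539 and 0.0765) and at 0.50 to 0.56 with Cry2, Nr1d1 and Per1.

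**Figure D3:**
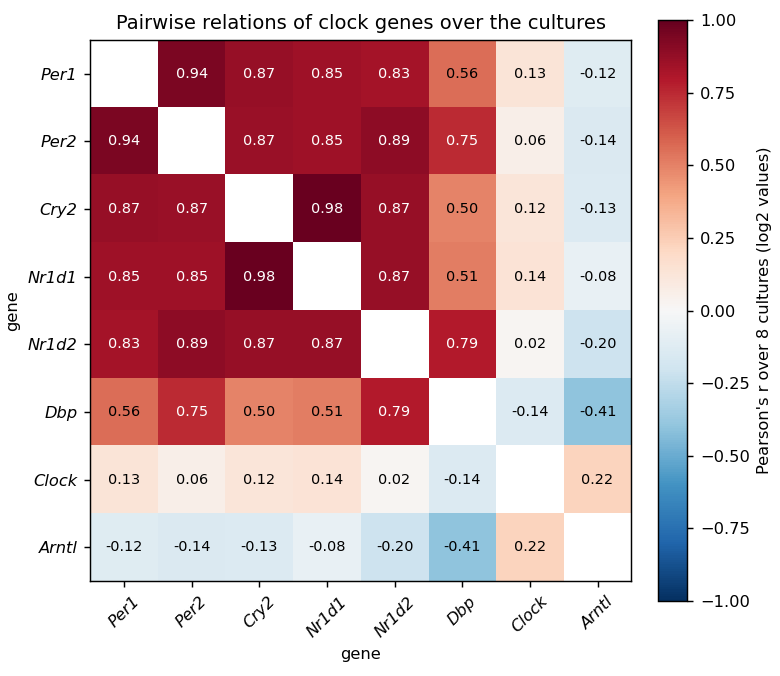
Pearson's r between the log2 intensities of each pair of the 8 tested clock genes over the 8 cultures (both axes: gene, colour: r from -1 to 1, number in each cell: r). Per1, Per2, Cry2, Nr1d1 and Nr1d2 form a block of values from 0.83 to 0.98, Dbp joins it at 0.50 to 0.79, and Clock lies between -0.14 and 0.14 against these 6 genes and Arntl between -0.41 and -0.08.

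The tightest pair was Cry2 with Nr1d1. Their r was 0.985 (exact permutation p = 2.48e-05, the smallest that the pairings can give, adjusted p = 0.000694) and their rho 1, since the 8 cultures had the same order on both genes: mice 28, 16, 15, 32, 17, 37, 34 and 35 from high to low. Among the 10413 other tested probes, Nr1d1 was the one most like Cry2 and Cry2 the one most like Nr1d1. Leaving out the 2 cultures farthest from the median of Cry2 left r at 0.981 (exact permutation p = 0.0014). Cry2 fell into 4 high and 4 low cultures, however, with a gap of 52.7% of its log2 range between them, and each side held 2 cultures of each strain. Within each side, of 4 cultures, the relation was not tested. Within the strains r was 0.977 in Nd2-mutant and 0.998 in control cultures, 4 each.

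Per1 and Per2 correlated with r = 0.944 and rho = 0.952 (exact permutation p = 0.000645 and 0.00114, adjusted p = 0.00903 and 0.0156). Without mice 34 and 35, the 2 cultures farthest from the median of Per1, r was 0.913 (exact permutation p = 0.0042). Among the other tested probes, Per2 took place 8 of 10412 by likeness to Per1. Of the 10 pairs that passed, 5 kept an unadjusted exact permutation p under 0.05 without the 2 cultures farthest from the median of the first gene. The pairs of Per1 with Cry2, Nr1d1 and Nr1d2, of Per2 with Nr1d1 and of Nr1d1 with Nr1d2 did not, with r from 0.69 to 0.81 over the 6 cultures left. As a measure of how common such values were, 5.46% of the other tested probes had an r of at least 0.7 with Per1 and 3.51% with Nr1d1.

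**Figure D4:**
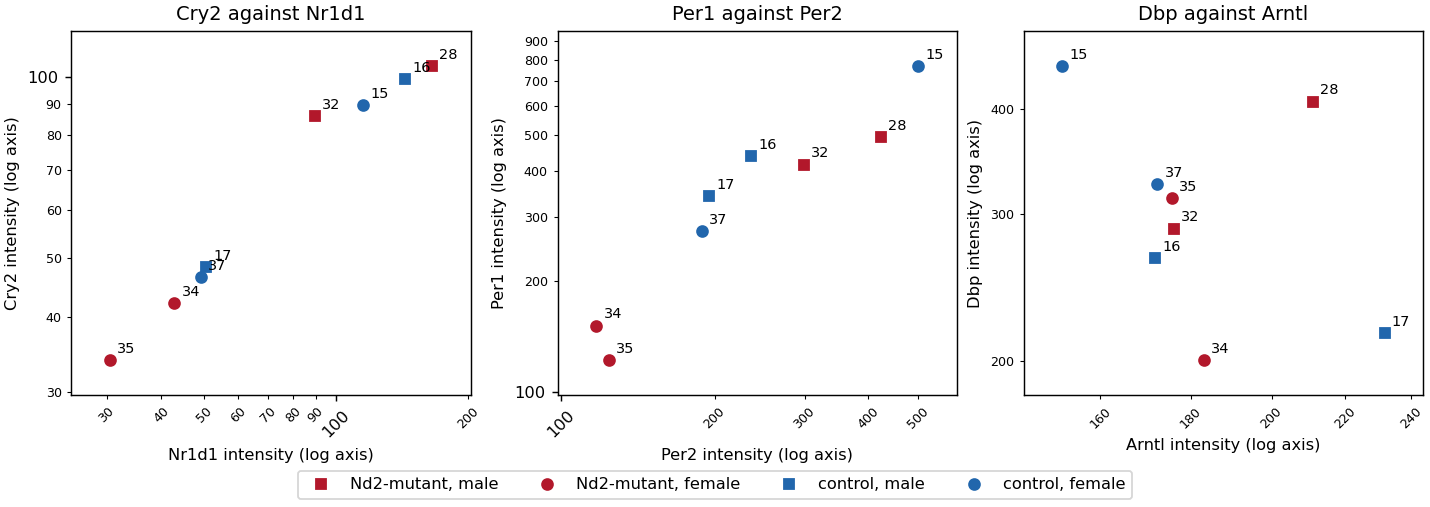
Intensities of 3 pairs of clock genes in the 8 cultures (log axes, numbers are mice). Red marks Nd2-mutant and blue control cultures, squares males and circles females. Cry2 and Nr1d1 put the cultures in one order (r = 0.985), Per1 and Per2 nearly so (r = 0.944), and Dbp and Arntl show no such order (r = -0.41).

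Expressed as the mean deviation of the 6 E-box genes from their mean over cultures, on the log2 scale, control mouse 15 (0.67) and Nd2-mutant mouse 28 (0.62) were at the high end, control mouse 16 (0.30) and Nd2-mutant mouse 32 (0.21) came next, control mice 37 (-0.21) and 17 (-0.26) followed, and Nd2-mutant mice 35 (-0.65) and 34 (-0.67) were at the low end. Each strain thus held 2 cultures above and 2 below the mean. Mouse 28 was first or second on 6 of 6 genes, and mouse 34 seventh or last on 6 of 6. After the strain means were removed, the r of the 15 pairs was between 0.49 and 0.98, and with the means of each strain and sex removed between 0.48 and 0.97. The number of pairs with an adjusted exact permutation p under 0.05 fell to 1, Cry2 with Nr1d1, when strain means were removed and pairings were drawn within strains (576 pairings), and also when mice 34 and 35 were left out (6 cultures). The smallest p that these pairings can give was 0.00174 and 0.00139, with which a lone pair only just passes after adjustment over 28 pairs, and the r of the 15 pairs without those mice was still 0.48 to 0.97. It was 2 without Nd2-mutant mouse 28, 3 without mouse 32 and 6 without mouse 34, and 9 without control mouse 15.

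No opposite course of Arntl and the E-box genes was detectable over the 8 cultures, although the sign was negative throughout. The r of Arntl with the 6 genes was between -0.41 (Dbp) and -0.08 (Nr1d1), negative for 6 of 6, and 0 passed an unadjusted p of 0.05 in the exact permutation tests (smallest p = 0.317, adjusted p = 0.556). With the means of each strain and sex removed r was -0.67 to -0.22, and without mice 34 and 35 -0.50 to -0.21. The strains differed in sign. In the 4 control cultures r was between -0.90 (Nr1d2) and -0.57 (Per1), with mouse 17 highest in Arntl and lowest in Nr1d2 and Dbp, and mouse 15 lowest in Arntl and highest in Per1, Per2, Nr1d2 and Dbp. In the 4 Nd2-mutant cultures r was between 0.59 (Per1) and 0.78 (Nr1d1), with mouse 28 the highest in Arntl as in the E-box genes. With 4 cultures a strain, the difference between these values was not tested, and the whole range of Arntl among the Nd2-mutant cultures was 176 to 211. Without the 2 cultures farthest from the median of Arntl, mice 17 and 28, its r with Dbp was -0.90 (exact permutation p = 0.0306, unadjusted). Clock had an r between -0.14 and 0.14 with the E-box genes and 0.22 with Arntl, and 0 of these 7 pairs passed. With the means of each strain and sex removed, its r with the E-box genes was -0.74 to -0.25, and without mice 34 and 35 -0.77 to -0.04, negative for 6 of 6 both times, where 0 passed an unadjusted 0.05 without those mice and the values with the means removed were not tested.

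The promoters of Nr1d1, Cry2 and Per1, whose levels ran together, and of Arntl, the target of REV-ERB, are shown because the loop described above is written in such elements. RefSeq windows on GRCm38.p6, from 250 bases before to 50 bases after an annotated start, were given for 9 of the 10 members, all but Per2. They were searched on both strands for the E-box CACGTG, the E-box variant CACGTT, the D-box in its forms TTATGTAA and TTACGTAA, the ROR element in its forms TAGGTCA and, with a changed second letter, TGGGTCA, and the cAMP element TGACGTCA. These letters share no overlapping match in the windows printed. Of all 32851 windows, 7.15% held the E-box, 4.68% the variant, 1.06% the D-box, 6.45% the ROR element and 1.79% the cAMP element. The capitals mark the match in each of these 4 windows, written 5′ to 3′ on the strand of the gene.
Nr1d1, chr11:98775328-98775627, minus strand: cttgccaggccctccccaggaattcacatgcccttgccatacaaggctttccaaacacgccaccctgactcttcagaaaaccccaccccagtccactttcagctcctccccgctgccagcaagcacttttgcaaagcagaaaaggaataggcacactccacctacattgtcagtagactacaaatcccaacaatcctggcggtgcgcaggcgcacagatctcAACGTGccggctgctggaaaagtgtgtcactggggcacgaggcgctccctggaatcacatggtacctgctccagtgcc
Cry2, chr2:92434020-92434319, minus strand: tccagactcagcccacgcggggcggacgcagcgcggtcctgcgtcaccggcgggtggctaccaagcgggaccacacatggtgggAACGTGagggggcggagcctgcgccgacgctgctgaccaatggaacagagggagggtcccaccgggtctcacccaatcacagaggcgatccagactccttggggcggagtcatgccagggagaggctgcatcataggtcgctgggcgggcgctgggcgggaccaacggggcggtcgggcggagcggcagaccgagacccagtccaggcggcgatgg
Per1 (first listed start), chr11:69098699-69098998, plus strand: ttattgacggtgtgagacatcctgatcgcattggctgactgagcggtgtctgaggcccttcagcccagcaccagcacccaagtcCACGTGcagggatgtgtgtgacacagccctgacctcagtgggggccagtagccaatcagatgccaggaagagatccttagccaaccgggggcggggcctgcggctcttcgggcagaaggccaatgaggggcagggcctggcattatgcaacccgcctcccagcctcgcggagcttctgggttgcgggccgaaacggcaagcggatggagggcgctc
Arntl (second listed start), chr7:113207261-113207560, plus strand: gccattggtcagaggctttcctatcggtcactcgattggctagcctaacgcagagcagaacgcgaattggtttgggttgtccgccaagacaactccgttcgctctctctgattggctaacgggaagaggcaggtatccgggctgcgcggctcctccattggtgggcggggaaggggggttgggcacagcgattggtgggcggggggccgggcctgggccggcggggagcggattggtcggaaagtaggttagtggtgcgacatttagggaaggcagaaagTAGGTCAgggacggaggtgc
The pair of genes with the same order of cultures, Nr1d1 and Cry2, both held the variant, on the strand opposite to the printed one, 28 and 166 bases before the start. Per1 held the E-box, also 166 bases before its first listed start, and Arntl a ROR element 31 bases after its second one. The second listed window of Per1 and the first of Arntl, not printed, held none of the 5 motifs. Of the 13 windows of the members, 2 held the E-box, 3 the variant and 1 a ROR element. Of the genes that did not pass the filter, Cry1 held the E-box and the variant and Per3 held 2 D-boxes. The windows of Clock, Nr1d2 and Dbp held none of the 5 motifs, and Nr1d2 correlated with Per1, Per2, Cry2 and Nr1d1 at 0.83 to 0.89 all the same. A match is a string of letters and not a measured site.

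Other genes of the loop were read against the members. In the positive arm, 4 genes were tested (Arntl, Clock, Rora and Rorb), 2 were below and 2 above 0 in the strain difference, the median was 0.02, and 0 passed an unadjusted 0.05 in limma. Rora, an activator of Arntl through ROR elements, read 148, 137, 163 and 191 in Nd2-mutant mice 28, 32, 34 and 35 and 273, 139, 97.2 and 112 in control mice 15, 16, 17 and 37. Rorb, near the detection limit, lay between 8.21 and 50.5 and differed by -0.01 (SE 0.26). It was detected on 3 Nd2-mutant and 4 control arrays and so tested only through the control strain. Its interaction was -0.89 (SE 0.41), and its r with the mean of the 6 E-box genes was -0.71, where that of Rora was 0.27. Npas2 was not tested because it was not detected on enough arrays.

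In the negative arm, 7 of 10 genes were tested, 7 of 7 were below 0, the median was -0.20 and 0 passed an unadjusted 0.05. Of all tested probes 49.8% were below 0. Most of these genes are members already counted above, whose values correlated with one another, so the count is not one of separate observations. Its 2 genes outside the members were Bhlhe40 (DEC1, a repressor at E-boxes) and Ciart (CHRONO, which binds ARNTL). Bhlhe40 read 2144, 1377, 644 and 786 in Nd2-mutant mice 28, 32, 34 and 35 and 1537, 1944, 1749 and 1526 in control mice 15, 16, 17 and 37. It was thus low in the same 2 cultures as Per1 and Per2, with a strain difference of -0.59 (SE 0.32, adjusted p = 0.648 in limma) and an interaction of 0.99 (unadjusted p = 0.0232). Its r with the mean of the 6 E-box genes was 0.78. Ciart was at 91.7, 52.4, 52.9 and 78.0 against 79.0, 89.5, 64.7 and 62.3 on probe ILMN_3029489 (r = 0.52). Its strain difference was -0.10 on that probe and 0.0013 on probe ILMN_3102736. Among the PAR bZIP and D-box factors 2 of 4 were tested, Dbp and Tef, with a median of -0.05 and 0 calls. Tef, a paralogue of Dbp, read 182, 145, 142 and 193 against 209, 221, 125 and 146, and its r with Dbp was 0.59.

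Of the kinases and ubiquitin ligases that set the stability of clock proteins, 6 of 10 genes were tested, 5 below and 1 above 0, with a median of -0.13. Csnk1d, casein kinase 1 delta, was the one gene with an unadjusted p under 0.05, but its 5 tested probes disagreed. Probe ILMN_2746075 was detected on 4 Nd2-mutant and 3 control arrays and so tested only through the strain in which it was higher. It read 69.8, 77.7, 62.7 and 40.7 in the Nd2-mutant mice and 9.94, 18.0, 42.2 and 44.8 in the control mice (0.88, SE 0.28, unadjusted p = 0.0104, adjusted p = 0.639 in limma). Probe ILMN_3030340, detected on all 8 arrays, gave 0.36 (SE 0.16, unadjusted p = 0.0475, adjusted p = 0.639 in limma). The other 3 lay between -0.21 and 0.03. Of the clock output genes, 6 of 12 were tested, 5 below and 1 above 0, with a median of -0.25. Tars, a tRNA synthetase, passed an unadjusted 0.05 on the dim probe ILMN_1239799 (-0.30, SE 0.12, adjusted p = 0.639 in limma). It read 15.5 to 18.3 in Nd2-mutant and 22.9 to 26.9 in control cultures without overlap, as 4.37% of all tested probes did not overlap. The brighter Tars probe ILMN_1257552, at 52.8 to 128, overlapped between the strains and did not pass (-0.34, SE 0.19, unadjusted p = 0.105 in limma). The output gene most like the E-box genes was Usp2, a deubiquitinase, with r = 0.86 to their mean, and it read 134 and 113 in mice 34 and 35 and between 197 and 504 in the other 6.

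Transcripts that respond to glucocorticoids or serum, signals that also induce Per1, were counted in the same way. Of 8 glucocorticoid-responsive genes 6 were tested, 4 below and 2 above 0 in the strain difference, with a median of -0.12. Dusp1, a MAP kinase phosphatase, passed an unadjusted 0.05 in limma (-0.81, SE 0.29, adjusted p = 0.639), reading 1369 and 1282 in mice 34 and 35 and between 2286 and 4826 elsewhere. Klf9, a transcription factor of the same response, read 854 and 955 in these cultures and between 1124 and 1977 elsewhere, and had an r of 0.85 with the mean of the E-box genes. Fkbp5 and Tsc22d3, further glucocorticoid targets, had an r of -0.33 and -0.53. Of 8 immediate early genes 6 were tested, 5 below and 1 above 0, with a median of -0.17, and Atf3 passed an unadjusted 0.05 (-0.88, SE 0.36, adjusted p = 0.639), having been tested only through the control strain, in which it was higher, since it was detected on 3 Nd2-mutant and 4 control arrays. For 4 of the 6 (Fos, Fosb, Junb and Atf3) the interaction of strain and sex had an unadjusted p under 0.05, against 1.77% of all probes, and none passed after adjustment in limma (adjusted p = 0.0794 for Fosb and 0.9999 for the other 3). Fos itself correlated little with the E-box genes (r = -0.06), whereas Fosb (0.72) and Atf3 (0.73) did. All correlations of genes outside the members are descriptions over the same 8 arrays.

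**Figure D5:**
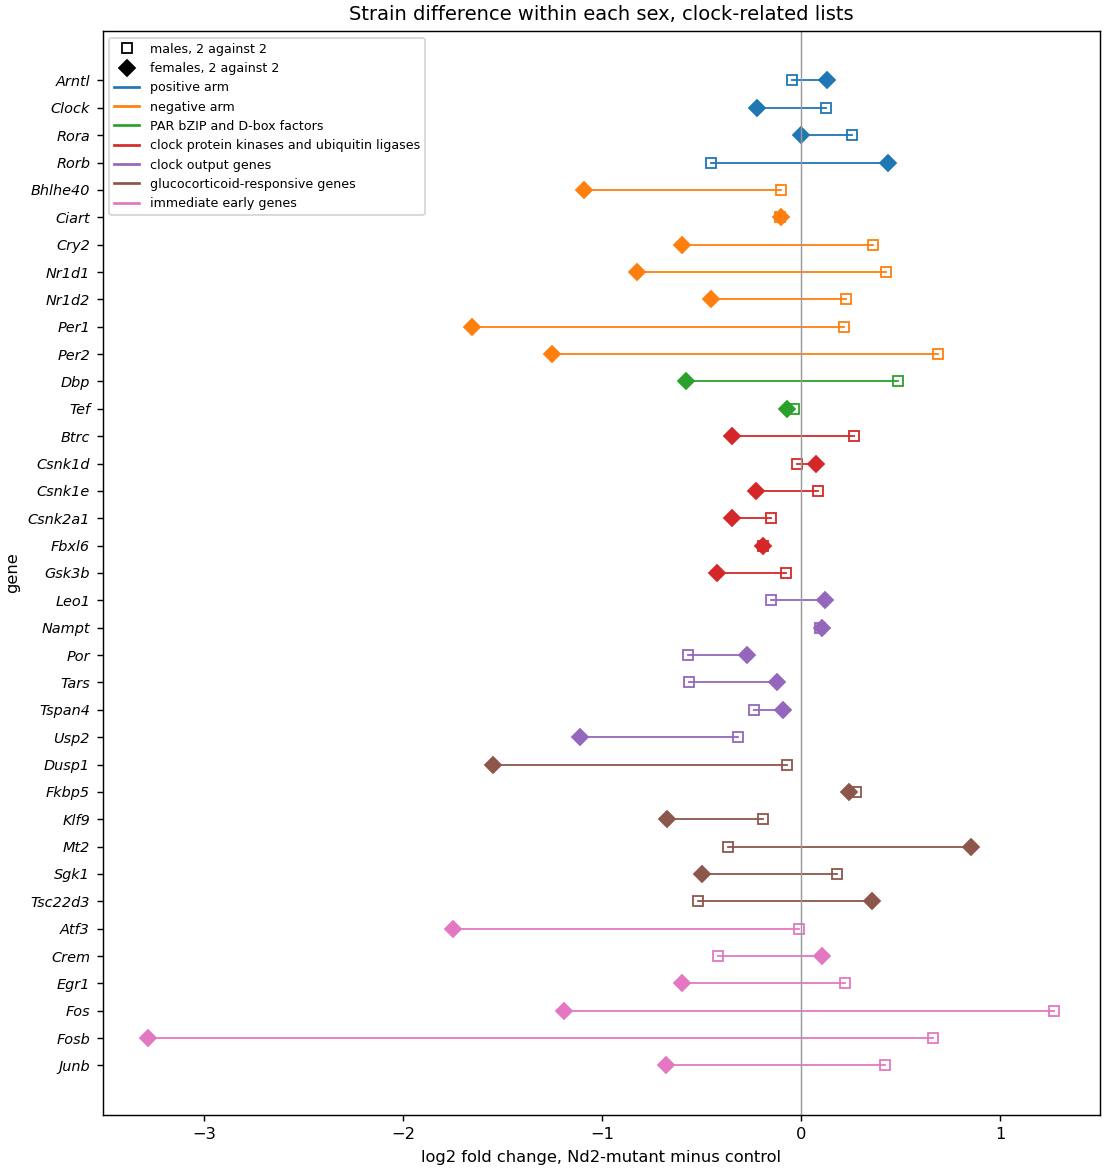
Log2 difference between the strains (x axis, Nd2-mutant minus control) within males (open squares, 2 against 2) and within females (filled diamonds, 2 against 2) for the tested genes of 7 clock-related lists (y axis, colour by list, probe of the highest mean per gene). The widest distances between the sexes are those of Fosb, Fos, Per2 and Per1, while Ciart, Tef, Csnk1d and Nampt show nearly the same difference in both.

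The probes most like Dbp over the 8 arrays, outside the members, were those of Cugbp2 (r = 0.966), Taf15 (0.960), Tdrd7 (0.937) and Selk (0.927). Cugbp2, an RNA-binding protein, was at 212, 157, 128 and 188 in Nd2-mutant mice 28, 32, 34 and 35 and at 211, 141, 131 and 183 in control mice 15, 16, 17 and 37, with mice 28 and 15 at the top and 17 and 34 at the bottom, as in Dbp. The probes most like Arntl were those of 2410127L17Rik (r = 0.985), Ssr3 (0.955), Mphosph6 (0.953) and Coro1b (0.938). Ssr3, a subunit of the translocon-associated protein complex, lay between 3035 in control mouse 15 and 4902 in control mouse 17, the cultures that were also lowest and highest in Arntl. With 8 arrays and 10413 other probes, values of this size are given as a ranking and carry no test.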

How the data were processed

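Fibroblast RNA of 8 mice was read on as many MouseRef-8 v2.0 arrays of Illumina. GenomeStudio (version not given in the sources used here) served the authors for extraction, quantile normalization and background subtraction. The deposited intensity is linear, from -12.3 to 13935, with 26.2% of values at or below 0. Each intensity is deposited with a detection p-value from the same software. The tables named as normalized and as non-normalized hold the same values, so other normalizations could not be run. Chip, scan and extraction batches are not given in the sources used here.

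The members and gene lists were chosen with earlier results of these data known. Groups, sex and mouse numbers came from the sample labels. Intensities were floored at 0 and converted to log2(intensity + 16), which understates changes of dim probes. A probe was tested if detected (detection p-value under 0.01) on all 4 arrays of at least 1 strain. Strain, sex (strain as a term) and their interaction were tested over all 10414 probes with limma 3.58.1 (lmFit, eBayes) under R 4.3.3, all 2-sided and adjusted by Benjamini-Hochberg at a threshold of 0.05, after the steps had been tested on simulated data. Correlations used the probe of the highest mean per gene and exact permutations (Python 3.11.15, scipy 1.17.1, numpy 2.4.6). The name E-box genes follows the loop as described above and not the promoter matches. Cry2 was not in that set as first planned. Named genes were the members, list genes with an unadjusted strain p under 0.05, all tested genes of the positive arm, the negative arm and the PAR bZIP factors, and the 4 probes most like Dbp and Arntl. Usp2, Klf9, Fkbp5, Tsc22d3, Sgk1, Fos, Fosb, Junb, Id1, Krt14, Krt10, Lyz2, C1qb, Laptm5, Csf1r, Pecam1, Cdh5 and Tek were named after their values were seen. Older array symbols were used for 7 list genes (Bhlhb2 for Bhlhe40, Gm129 for Ciart and others). Of 87 listed genes 6 had no probe. Alternatives changed the added value, scale, filter, variance trend, array weights, probe, covariate and test (the methods' t-test), and left out single mice. A gene of the positive arm list is not reported here.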

Additional observations from a re-analysis of the deposited data

Results flagged for a closer look

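Control mouse 15 stood apart from the other 3 control cultures on Per2 probe ILMN_2987862 on the linear scale. Its gap to the next culture was 0.848 of the range of the 4 intensities, above Dixon's 95% limit for 4 values. On that scale it was the only one of 20 groups of 4 examined (10 clock probes in 2 strains) to pass, and chance alone passes about 1 in 20. On log2(intensity + 16) control mice 15, 16, 17 and 37 deviated from the mean over all cultures by 1.06, 0.02, -0.24 and -0.28. There the gap was a smaller share of the range, below that limit, so the flag depends on the scale. The other Per2 probe and both Per1 probes were also highest among controls in this culture, whose array correlated least with the others.

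The strain difference ran in opposite directions in the sexes, with no overlap, on 3 of 10 tested clock probes, against 1.26% of all tested probes. Of these, 2 are probes of Per2 that correlated with r = 0.980. The difference in males minus that in females was 1.94 on the log2 scale for Per2 probe ILMN_2987862, 1.72 for Per2 probe ILMN_2987863 and 1.07 for Dbp, each with an adjusted p of 0.9999 for the interaction in limma. In all 3 cases 2 mice stood on each side within a sex. In both female Nd2-mutant cultures 2 of 6 tested immediate early genes (Fosb and Atf3) and the keratinocyte marker Krt14 were also lowest, as 4.93% of all tested probes were. The keratinocyte marker Krt10 was not, and the macrophage markers were high in mouse 35. Their part in this was not tested.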

How the results depend on the processing

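In the strain difference, 0 of the 8 clock genes passed after adjustment in limma under each alternative tried, while the sign of the small differences changed easily. Within males alone all 10 probes changed sign, to -0.046 (Arntl), 0.13 (Clock), 0.36 (Cry2), 0.49 (Dbp), 0.43 (Nr1d1), 0.22 (Nr1d2), 0.044 and 0.22 (Per1) and 0.69 and 0.63 (Per2). With array weights 5 did, to -0.036 (Arntl), 0.11 (Cry2), 0.028 (Dbp), 0.10 (Nr1d1) and 0.047 (Per2 probe ILMN_2987863). Without mice 35 and 15 together, chosen after the data had been seen, 7 did, to -0.0044 (Arntl), 0.0085 (Clock), 0.21 (Cry2), 0.11 (Dbp), 0.23 (Nr1d1) and 0.25 and 0.26 (Per2). Leaving out each mouse in turn gave ranges of -0.030 to 0.16 (Arntl), -0.12 to 0.078 (Clock), -0.33 to 0.094 (Cry2), -0.20 to 0.14 (Dbp), -0.56 to 0.092 (Nr1d1), -0.25 to 0.029 (Nr1d2), -0.60 to 0.025 and -0.57 to 0.034 (Per2), whereas both Per1 probes stayed below 0 (-1.03 to -0.40 and -1.09 to -0.51). Over all alternatives run 172 recomputed strain differences kept their direction and 38 reversed. For the interactions these counts were 159 and 1, and 0 of the correlations of the 15 pairs reversed. The counts do not rank the comparisons by stability. A change of filter or variance trend leaves the coefficients as they were, and the fits within a sex and without mice 35 and 15 together, where many signs changed, have no counterpart for the interaction. Without each mouse in turn the interaction of Arntl ran from -0.38 to 0.020.

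Over all genes, the strain comparison gave 0 genes after adjustment and 725 before, against 3 and 1504 with no filter on detection and 1 after adjustment with the methods' t-test. Without single mice these counts were 0 to 0 and 406 to 1304, and those of clock genes 0 to 0 and 0 to 1. The sex comparison gave 2 genes after adjustment and 787 before, against 1 with 50 added, 0 on the linear scale, 8 with detection on any 1 array (1 clock gene, Clock, before adjustment), 4 with probes detected on all 8, 1625 before adjustment with no filter (1 clock gene, the same probe of Clock) and 367 and 1927 with array weights (3 clock genes after and 5 before). Without single mice it gave 0 to 10 and 468 to 1589, with 0 to 0 and 0 to 4 clock genes (4 without control mouse 15, 3 without control mouse 17). The interaction gave 1 gene after adjustment and 175 before, against 0 with 1 added, 0 on the linear scale (also 0 clock genes before adjustment in place of 3), 0 and 1173 with no filter, and 2 with a variance trend. Its counts without single mice were not drawn, since 1 mouse would be left in a group.

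The number of correlated pairs was 10, against 1 with strain means removed, 1 without both female Nd2-mutant mice and 2 to 10 without each mouse. For the first and second of these the smallest p that the pairings can give, 0.00174 and 0.00139, lets a lone pair only just pass after adjustment over 28 pairs. No count is given with strain and sex means removed, because its permutations cannot reach the threshold. Background and normalization alternatives were not run, since they need values before normalization. The cause of these changes was not tested. No paired analysis was possible because no mouse number occurs in both strains. The 8 arrays, and for Per3 and Cry1 a signal at background, limit what can be told apart.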
